A study of Homo sapiens with 15 samples.

Results

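The entries miR-1273a, miR-1273c, miR-1273d, miR-1273e, miR-1273f, miR-1273g-3p, miR-1273h-3p and miR-1273h-5p are the mature miRNAs of the miR-1273 name that were counted in these libraries. All rows whose name starts with hsa-miR-1273 were taken, which gave 8 of 2189 miRNAs in the immunoprecipitation (RIP-seq) counts and the same 8 of 2418 in the knockdown counts. Small RNA came from FTO1C1, FTO2D4 and FTO3C3, 3 separate Flp-In 293 T-Rex derivatives of HEK293, a line established from human embryonic kidney, so that each group holds 1 library of each clone and n = 3 throughout. For RIP-seq, RNA of untreated cells was read as it was (input), and again after pull-down with an antibody against N6-methyladenosine (m6A) and after pull-down with an IgG isotype control. For the knockdown, the lines were not induced and received 10 nM of either scrambled siRNA or a kit of siRNAs against FTO, an enzyme that removes m6A, and RNA was taken after 48 h. FTO mRNA itself was not analysed here.

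A miRNA is cut from a hairpin in a longer transcript, and its seed (bases 2 to 8) pairs with target mRNAs. The miR-1273 hairpins are known as overlapping Alu elements, primate-specific repeats that are spread through the genome in very many similar copies and are transcribed within introns and untranslated regions as well as on their own. The overlap is taken from background knowledge and was not checked against a repeat annotation. A short read from an Alu can come from many loci. The reads were matched to mature miRNAs and not to a genome, so the locus of a read is unknown, and reads of an Alu transcript cannot be told apart from reads of a miRNA.

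RefSeq (GRCh38.p14) gave a mature sequence for 2 of the 8 entries. They are shown 5′ to 3′ with the seed in capitals, so that the contexts of their adenosines can be seen. miR-1285-3p, another Alu miRNA, is shown beside them. It was the most like miR-1273c by local alignment among the 2127 entries of these counts with a RefSeq sequence. The other miR-1273 entries had no sequence to align.
miR-1273c: gGCGACAAaacgagacccuguc
miR-1273h-3p: cUGCAGACucgaccucccaggc
miR-1285-3p: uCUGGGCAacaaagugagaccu
miR-1273c lies at chr6:154853369-154853390 on the plus strand, outside any other gene of the annotation used. miR-1273h-3p lies at chr16:24203186-24203207 on the plus strand, within the span of PRKCB, which encodes protein kinase C beta.

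The 2 sequences are unlike each other. Their seeds differ, and neither seed was found in any other of the 2127 miRNAs of these counts with a RefSeq sequence. miR-1273c and miR-1285-3p aligned without gaps over 17 bases, of which 14 were identical, with no identical stretch beyond 6 bases. The longest exact stretch that miR-1273c shared with any other entry that had a sequence was 9 bases, and that of miR-1273h-3p was 8 bases on the same strand. None of these entries shared a single stretch of 17 bases with either of them. A read had to match 17 bases in all, but in pieces of 7 or more. Sets of shorter shared pieces were not searched, nor were the miR-1273 entries without a sequence, so shared reads are not excluded. Both contain adenosines in the contexts searched. The trinucleotides GAC or AAC, counted on the RNA strand with overlaps, occurred 3 times in miR-1273c and 2 times in miR-1273h-3p, and 37.4% of the 2127 sequences held at least 1. Five-letter forms made of a purine, a purine, an adenosine, a cytidine and any base except guanosine, which contain those trinucleotides, occurred 1 time in each, as AGACC in miR-1273c and AGACU in miR-1273h-3p, and 21.6% of all sequences held at least 1. A match of letters is a description and does not place a methyl group. miR-1273c has 7 adenosines and 59.1% G and C, and miR-1273h-3p has 4 adenosines and 68.2%, against medians of 5 adenosines and 52.2% over all sequences.

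The depth behind these values differed between libraries. Between 186446 (IgG, FTO3C3) and 4973238 (m6A, FTO3C3) reads fell on miRNAs in the RIP-seq libraries, and between 1991317 and 3876806 in the knockdown libraries. The counts were divided by that total and are given as reads per 1000000 miRNA reads (RPM). miR-6080 alone took between 15.5% and 71.6% of the reads of a RIP-seq library, and this share enters every RPM value. A count of 3 reads corresponds to 16.1 RPM in the IgG library of FTO3C3 and to at most 5.27 RPM in the other RIP-seq libraries. Reads were not tagged by molecule before PCR, so intervals from counts cover counting error only.

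The miR-1273 entries were minor species before precipitation. Together they had 137, 198 and 155 RPM in the input libraries of FTO1C1, FTO2D4 and FTO3C3, 292, 273 and 370 RPM with scrambled siRNA and 346, 416 and 375 RPM with FTO siRNA. In the IgG libraries they had 510, 324 and 638 RPM, and in the m6A libraries 1738, 1095 and 1298 RPM. The m6A libraries were thus above all IgG libraries, and these above all input libraries. miR-1273c carried much of this order. Without it, the other 7 entries summed to 123 ± 25.6 RPM (SD, n = 3) in input, 130 ± 64.0 RPM in IgG and 523 ± 24.7 RPM in m6A libraries, so that IgG and input overlapped and m6A stayed apart. Input and scrambled siRNA libraries belong to separate experiments and were not tested against each other.

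In input the entries ran from 40.9 ± 5.71 RPM for miR-1273c, through 34.9 ± 9.86 for miR-1273g-3p, 28.8 ± 2.33 for miR-1273a, 19.9 ± 3.86 for miR-1273e, 11.5 ± 6.92 for miR-1273h-5p, 11.4 ± 2.00 for miR-1273h-3p and 9.36 ± 2.27 for miR-1273f, to 6.59 ± 2.21 for miR-1273d. These are levels in reads of whole small RNAs, which are not divided by length. Neighbours in this order overlapped in their ranges, except that every value of miR-1273a was above every value of miR-1273e. miR-1273c stood at the 74.5th percentile of all miRNAs by mean input RPM and miR-1273d at the 15.8th. With scrambled siRNA miR-1273c, miR-1273g-3p and miR-1273e had the highest means, at 82.5 ± 24.5, 66.3 ± 13.6 and 59.1 ± 8.66 RPM, and overlapped. Of the 8, 5 reached 15 RPM, the cutoff of the study for the knockdown data, with scrambled siRNA in each clone, against 42.7% of all miRNAs. The entries miR-1273f, miR-1273h-3p and miR-1273h-5p did not reach it. miR-1273f was below it in FTO3C3 alone, at 14.6 RPM.

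**Figure D1:**
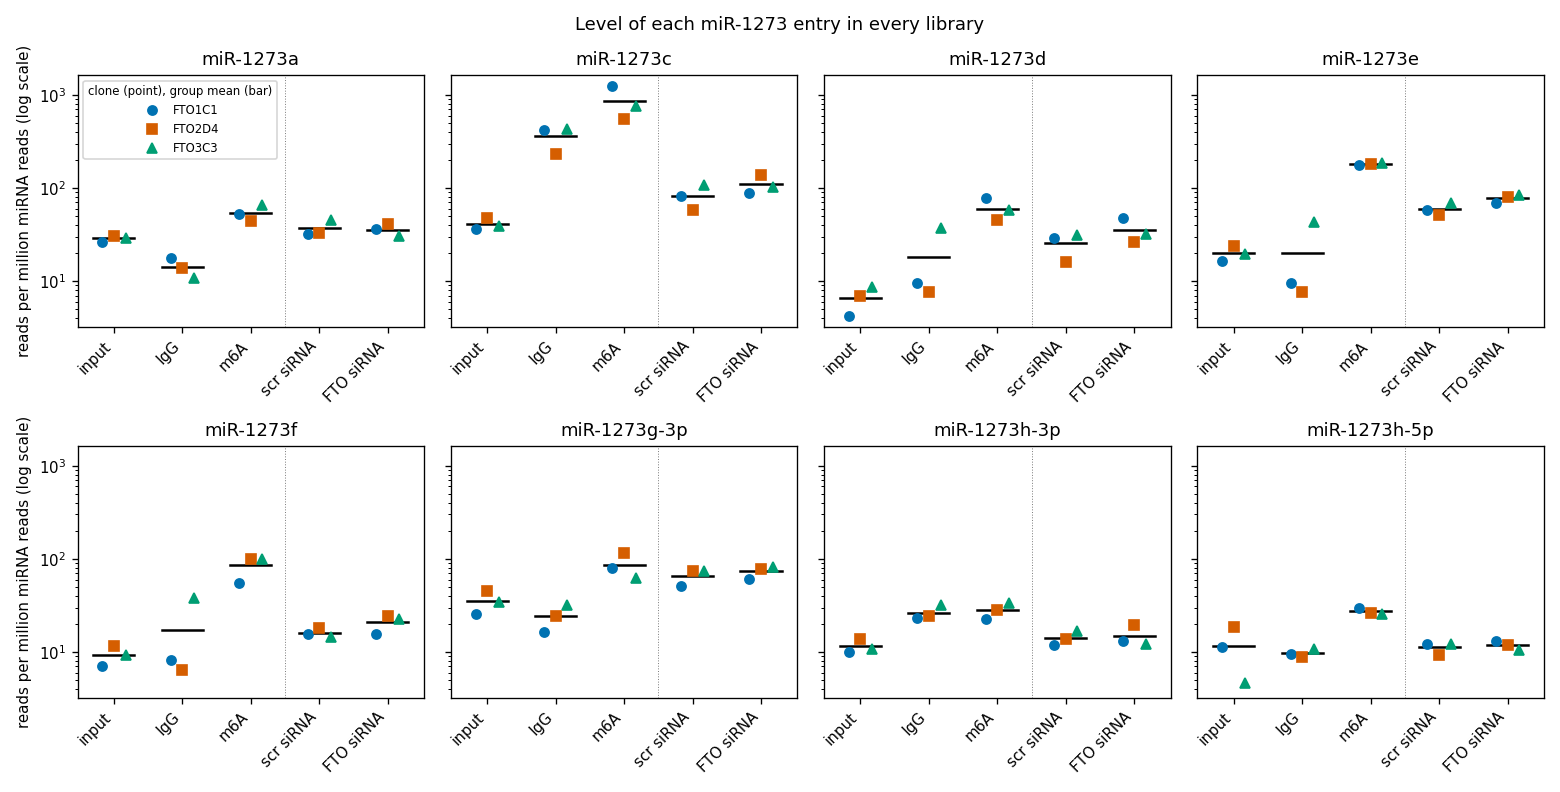
RPM (log axis) of each miR-1273 entry in the 15 libraries, with a symbol for each clone and a bar for the mean of each group. miR-1273c is far higher in IgG and m6A than in input libraries, whereas miR-1273e is high in the m6A libraries and in the IgG libraries only in FTO3C3 exceeds its input values.

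miR-1273c was counted 51, 69 and 59 times in input, 309, 182 and 81 times in IgG and 708, 754 and 3804 times in m6A libraries of FTO1C1, FTO2D4 and FTO3C3. In RPM, the input values were 36.2, 47.3 and 39.3, the IgG values 417, 231 and 434 and the m6A values 1243, 553 and 765. The 3 groups did not overlap, and how many of all miRNAs were without overlap was not computed. The share of miR-1273c was thus already higher after precipitation with IgG alone than in the RNA put in. The ratio of IgG to input was 11.5, 4.89 and 11.0 for miR-1273c, and for the other 7 entries it ran from 0.318 to 4.33.

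The comparison of IgG with input libraries asks whether the share of an entry among miRNA reads differs after precipitation without the m6A antibody. RPM do not give the amount of RNA retained. By edgeR's quasi-likelihood test with the clone as a block, miR-1273c was 8.50-fold higher in IgG than in input libraries (log2 fold change 3.09 ± 0.46 SE, edgeR adjusted p = 1.32e-10). Its change exceeded that of 92.6% of the 1941 miRNAs tested. The size of the change depended on the scale, with a log2 fold change of 4.22 with totals without miR-6080, 2.52 with TMM factors and 2.46 by DESeq2, each of them called. miR-1273h-3p was 2.22-fold higher (log2 fold change 1.15 ± 0.52 SE, edgeR adjusted p = 0.0467). This call was lost without the filter on low counts and with any 1 of the clones left out, at edgeR adjusted p = 0.218 without FTO1C1, 0.0518 without FTO2D4 and 0.135 without FTO3C3. miR-1273d did not pass the filter on low counts, with 7, 6 and 7 reads in IgG and 6, 10 and 13 in input libraries, so that 7 of the 8 entries were tested. These 2 of 7 compare with 36.8% of all tested miRNAs called higher and 21.8% called lower, 58.6% in all. miR-1273a (log2 fold change -0.97), miR-1273g-3p (-0.59), miR-1273e (-0.45), miR-1273h-5p (-0.38) and miR-1273f (0.43) did not pass the test. The median of all tested miRNAs was 0.49 on the same log2 scale. TMM scaling, which brings that median to -0.0213, called miR-1273a (log2 fold change -1.43, adjusted p = 0.00918 by edgeR) and miR-1273g-3p (-1.11, adjusted p = 0.0253) lower, and lost miR-1273h-3p. Over all 1941 tested miRNAs TMM scaling called 559 higher and 586 lower. DESeq2 also called miR-1273a lower (log2 fold change -1.55, DESeq2 adjusted p = 0.0251) and not miR-1273h-3p, whereas with totals without miR-6080 miR-1273a turned to 0.20 and miR-1273g-3p to 0.56, neither called.

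miR-1273e had 23, 35 and 29 reads in input, 7, 6 and 8 in IgG and 102, 250 and 935 in m6A libraries of the same clones. Its RPM values were 16.3, 24.0 and 19.3 in input, 9.44, 7.63 and 42.9 in IgG and 179, 183 and 188 in m6A libraries. The m6A values lay close together and above all IgG and input values. The number of all miRNAs with such a separation was not computed. The IgG value of FTO3C3 rests on 8 reads, with an exact 95% Poisson interval of 18.5 to 84.5 RPM, which overlaps that of FTO1C1, 3.80 to 19.5 RPM.

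m6A libraries were compared with IgG libraries, as in the study, to find miRNAs retained by the antibody beyond unspecific binding. Of the 8 entries, 7 were higher in m6A than in IgG libraries at an adjusted p under 0.05 by edgeR, and miR-1273h-3p was not called. Over all 2054 tested miRNAs, 39.8% were called, 38.6% higher and 1.27% lower. The largest change was that of miR-1273e, which was 12.7-fold higher (log2 fold change 3.66 ± 0.53 SE, edgeR adjusted p = 0.000666). It stood above 93.3% of all tested miRNAs. The m6A to IgG ratio of its RPM reached 19.0 in FTO1C1 and 24.1 in FTO2D4, against 4.38 in FTO3C3. Without FTO3C3, whose IgG library is the shallowest, its log2 fold change was 4.39 (adjusted p = 0.00216 by edgeR).

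miR-1273f followed with a 6.54-fold difference (log2 fold change 2.71 ± 0.52 SE, edgeR adjusted p = 0.00316). Its log2 fold change was 2.06 without FTO2D4 and 3.36 without FTO3C3. Its counts were 6, 5 and 7 in IgG and 31, 136 and 500 in m6A libraries. The RPM values of 54.4, 99.8 and 101 in m6A libraries were above those of 8.09, 6.36 and 37.5 in IgG libraries. miR-1273d had 44, 62 and 289 reads in m6A libraries and was 4.31-fold higher (log2 fold change 2.11 ± 0.52 SE, edgeR adjusted p = 0.0113). Without FTO3C3 the log2 fold change of miR-1273d was 2.79. miR-1273d, miR-1273e and miR-1273f shared a high IgG value in FTO3C3 and lower ones in the other clones, from 5 to 8 reads per library in every case. Their ratios of m6A to IgG were accordingly lowest in FTO3C3, at 1.55, 4.38 and 2.68. The difference in depth between the IgG libraries goes with these values, and its part in them was not tested.

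miR-1273g-3p and miR-1273a were called at smaller changes. miR-1273g-3p had 12, 19 and 6 reads in IgG and 45, 156 and 310 in m6A libraries, a log2 fold change of 1.92 (SE 0.41, edgeR adjusted p = 0.00517). miR-1273a had 13, 11 and 2 reads in IgG and 30, 60 and 325 in m6A libraries, a log2 fold change of 1.81 (SE 0.41, edgeR adjusted p = 0.00704). For both entries every m6A value in RPM was above every IgG value, in a comparison where 38.6% of all tested miRNAs were called higher. How many of all miRNAs separated in this way was not computed, here or for miR-1273f. miR-1273c, the most abundant entry in the m6A libraries, had the smallest called change, 2.33-fold (log2 fold change 1.22 ± 0.27 SE, edgeR adjusted p = 0.00718). Its ratios of 2.98, 2.39 and 1.76 lay below those of miR-1273e in every clone.

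The calls depend on the scale, since the 2054 miRNAs had a median of 0.83 for this log2 fold change. Relative to that median, miR-1273e was higher by 2.83, miR-1273f by 1.88 and miR-1273d by 1.28 on the log2 scale, miR-1273g-3p by 1.09 and miR-1273a by 0.98, miR-1273h-5p by 0.70 and miR-1273c by 0.39, and miR-1273h-3p differed by -0.74. With TMM scaling 3 entries kept the call, miR-1273e (log2 fold change 2.92, adjusted p = 0.00188 by edgeR), miR-1273f (1.96, adjusted p = 0.0114) and miR-1273g-3p (1.15, adjusted p = 0.0382). Over all 2054 tested miRNAs TMM scaling called 453 higher and 302 lower. miR-1273c then showed a log2 fold change of 0.48 and an adjusted p of 0.185 by edgeR. Only miR-1273e and miR-1273f were called by edgeR or DESeq2 in every alternative run for this comparison. Without FTO2D4 the edgeR calls were 3, miR-1273a, miR-1273e and miR-1273f, beside 470 of all 1999 tested miRNAs.

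The 2 arms of the miR-1273h hairpin differed in this comparison. miR-1273h-3p had 17, 19 and 6 reads in IgG and 13, 38 and 165 in m6A libraries, or 22.9, 24.2 and 32.2 RPM and 22.8, 27.9 and 33.2 RPM. The groups overlapped, and its ratios were 0.996, 1.15 and 1.03 (log2 fold change 0.09 ± 0.38 SE, edgeR adjusted p = 0.871, with an approximate 95% interval from -0.65 to 0.83). miR-1273h-5p had 7, 7 and 2 reads in IgG and 17, 36 and 126 in m6A libraries. Its ratios were 3.16, 2.97 and 2.36 (log2 fold change 1.53 ± 0.45 SE, edgeR adjusted p = 0.025), and its call was lost without any 1 of the clones, with adjusted p-values between 0.0584 and 0.12 by edgeR. Reads of the 5p arm per read of the 3p arm, which do not depend on the scaling of a library, were 1.31, 0.947 and 0.764 in m6A, 0.412, 0.368 and 0.333 in IgG and 1.14, 1.35 and 0.438 in input libraries. The m6A values were thus above all IgG values (two-sided exact permutation test, p = 0.1, the smallest that 3 against 3 libraries allow), while the IgG values were also below all input values (p = 0.1) and the m6A and input values overlapped (p = 0.9), by the same exact test.

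**Figure D2:**
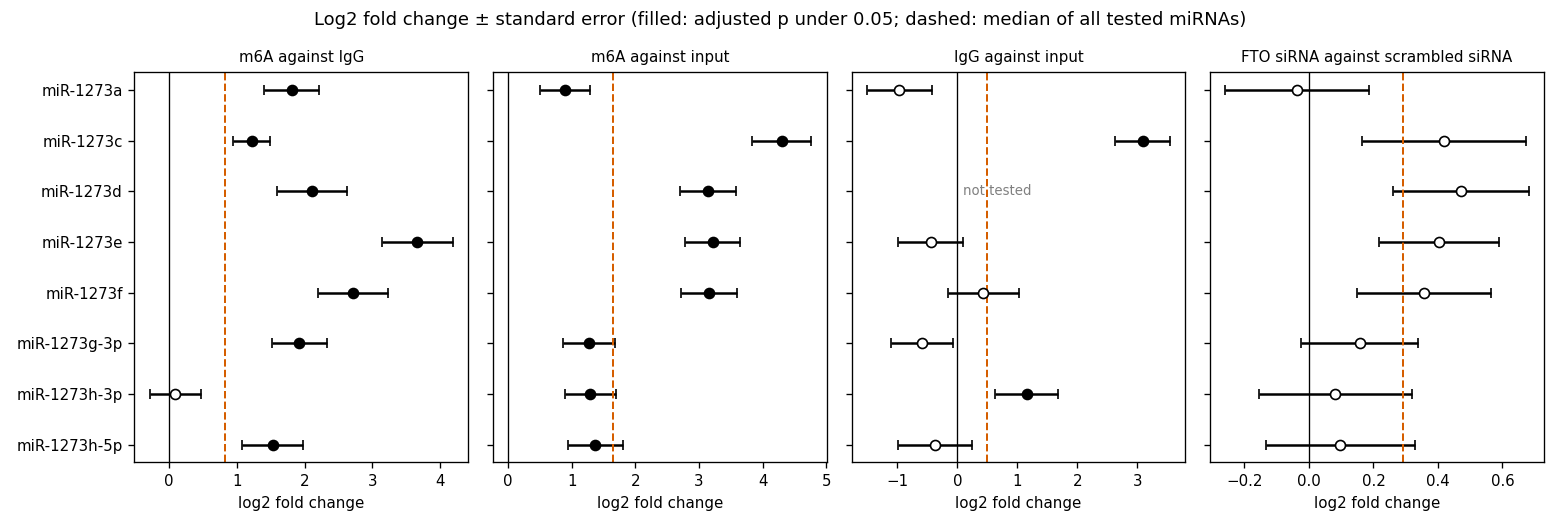
Log2 fold change with its standard error (horizontal axis) of each miR-1273 entry in the 4 comparisons, from edgeR's fit across all miRNAs. Filled points have an adjusted p under 0.05 and the dashed line is the median of all tested miRNAs, beyond which miR-1273c lies far to the right in both comparisons with input, and miR-1273e and miR-1273f in both comparisons of m6A libraries.

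The study called a miRNA methylated at 100 RPM or more after m6A precipitation and a ratio to IgG of at least 2. With the level required in all 3 m6A libraries and the mean of the 3 ratios, 2 of the 8 entries passed, miR-1273c with a mean ratio of 2.38 ± 0.61 (SD, n = 3) and miR-1273e with 15.8 ± 10.2, against 11.8% of all miRNAs. They were also the 2 entries that reached the level, as did 20.3% of all miRNAs. miR-1273c passed by its mean, as its ratio in FTO3C3 was 1.76. miR-1273f reached 101 RPM in FTO3C3 but 54.4 in FTO1C1. At a level of 15 RPM 7 entries passed, all but miR-1273h-3p, against 44.2% of all miRNAs. No test enters this rule.

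Against input, the RNA before precipitation, all 8 entries were higher in m6A libraries at an adjusted p under 0.05 by edgeR, as were 66.8% of the 2174 tested miRNAs, of which 77.3% were called in either direction. The input comparison uses the same m6A libraries as that with IgG, so these comparisons are not independent. miR-1273c had the largest change, 19.7-fold (log2 fold change 4.30 ± 0.46 SE, edgeR adjusted p = 8.16e-09), above 96.6% of all tested miRNAs. miR-1273e (log2 fold change 3.21), miR-1273f (3.16) and miR-1273d (3.14) differed from each other by less than their standard errors of 0.43 to 0.44, and each had an adjusted p of at most 4.85e-07 by edgeR. Their ratios to input ran from 6.64 to 18.1 over the clones. The other 4 entries had log2 fold changes between 0.89 for miR-1273a and 1.37 for miR-1273h-5p, under the median of 1.65 for all tested miRNAs. The call of miR-1273a was lost with any 1 of the clones left out and that of miR-1273h-5p without FTO3C3. With TMM scaling, which brings that median to 0.101, miR-1273c, miR-1273d, miR-1273e and miR-1273f were called higher as well, at smaller log2 fold changes of 2.75, 1.58, 1.67 and 1.62, and the other 4 had negative log2 fold changes without a call. Over all 2174 tested miRNAs TMM scaling called 575 higher and 614 lower.

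The make-up of the miR-1273 reads within each library is free of the scaling. miR-1273c took 26.4%, 23.9% and 25.3% of them in input, 81.7%, 71.4% and 68.1% in IgG and 71.5%, 50.5% and 58.9% in m6A libraries of FTO1C1, FTO2D4 and FTO3C3. The exact binomial 95% intervals reached at most 33.2% in input and went down to 58.9% in IgG. The IgG shares were thus above all input shares (two-sided unpaired exact permutation test, p = 0.1, the smallest possible), and m6A and IgG shares overlapped (p = 0.3 by the same exact test). miR-1273e took 11.9%, 12.1% and 12.4% in input, 1.85%, 2.35% and 6.72% in IgG and 10.3%, 16.8% and 14.5% in m6A libraries. Its share was therefore lower in IgG than in both other groups without overlap (exact permutation p = 0.1 for either), while its m6A and input shares overlapped (p = 0.4). A share of a sum moves with every entry in it, so the low IgG share of miR-1273e goes with the high share of miR-1273c. The m6A shares carry the same limit, with miR-1273c at 50.5% to 71.5% in m6A and 23.9% to 26.4% in input libraries. In RPM, miR-1273e in m6A libraries was 11.0, 7.65 and 9.73 times its input value. Shares without miR-1273c were not computed. miR-1273a and miR-1273g-3p took 17.9% and 21.1% of the reads in input on average, against 3.14% and 5.22% in IgG and 4.03% and 6.62% in m6A libraries, with no overlap between input and either precipitate. These lower shares have the same limit. In RPM both entries were higher in m6A than in input libraries in every clone, with ratios from 1.43 to 3.09.

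**Figure D3:**
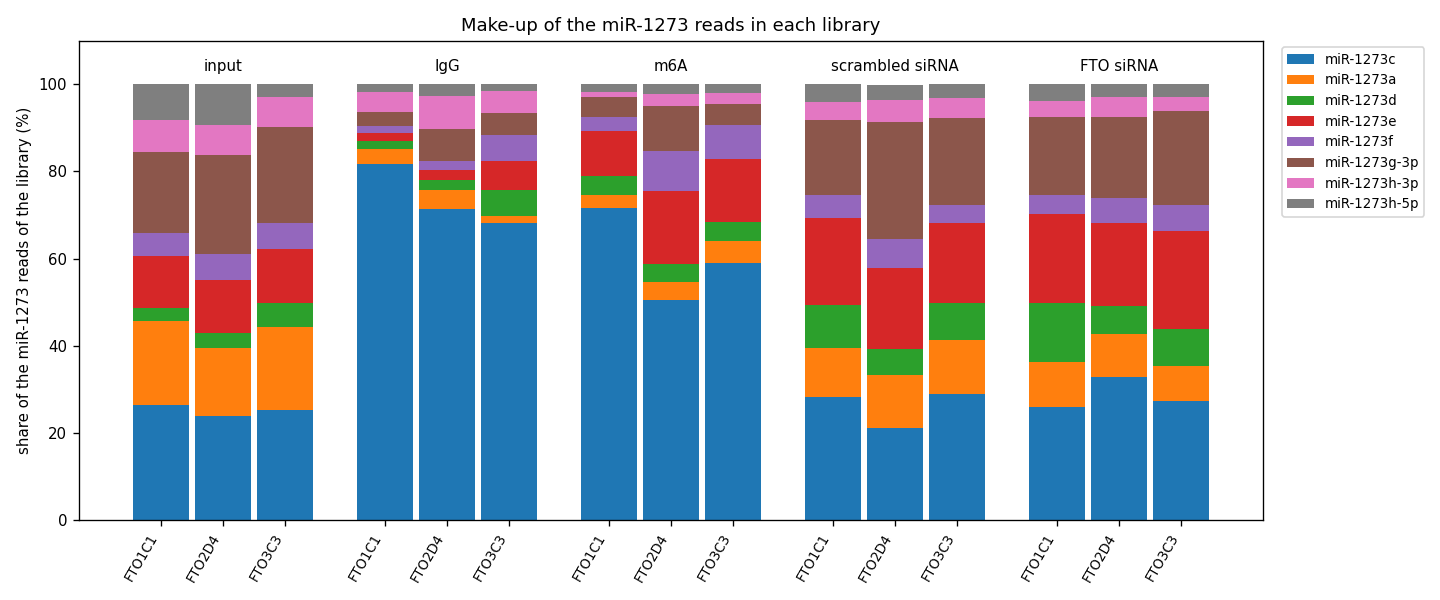
Share in percent (vertical axis) of each miR-1273 entry among the miR-1273 reads of a library, with 1 bar per library and the libraries grouped by condition. miR-1273c takes between 23.9% and 26.4% in input and between 68.1% and 81.7% in IgG libraries, and between 21.2% and 32.8% in the knockdown libraries.

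After FTO knockdown none of the 8 entries passed the test. The edgeR test gave 0 calls after adjustment, and 1 entry, miR-1273d, was under 0.05 before it. DESeq2 gave 0 calls among the 5 entries for which it returned an adjusted value, and 91 calls among all 777 such miRNAs. Of the 2374 miRNAs tested by edgeR, 5.48% were called, 4.97% higher and 0.505% lower. The changes lay within a narrow span, with log2 fold changes from -0.04 for miR-1273a to 0.47 for miR-1273d and a median over the 8 of 0.26, against 0.29 for all tested miRNAs, and 4 of the 8 were above that median.

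miR-1273e had 210, 126 and 136 reads with scrambled and 243, 276 and 326 with FTO siRNA. This is 57.7, 51.1 and 68.3 RPM against 69.8, 79.7 and 84.1 RPM, so that all values with FTO siRNA were above all with scrambled siRNA. The ratios within a clone were 1.21, 1.56 and 1.23 (log2 fold change 0.40 ± 0.19 SE, edgeR adjusted p = 0.202). The log2 fold change of miR-1273e exceeded that of 64.0% of all tested miRNAs, whose median was 0.291. How many of all miRNAs were without overlap was not computed. With TMM scaling its log2 fold change was 0.11. miR-1273d had 106, 40 and 63 reads with scrambled and 164, 91 and 125 with FTO siRNA, and ratios of 1.62, 1.62 and 1.02 (log2 fold change 0.47 ± 0.21 SE, edgeR adjusted p = 0.189). miR-1273c had 300, 143 and 213 reads with scrambled and 311, 473 and 396 with FTO siRNA. Its ratio was 2.35 in FTO2D4 but 1.08 and 0.955 in the other clones, and its log2 fold change of 0.42 (SE 0.25, edgeR adjusted p = 0.32) was 0.03 without FTO2D4. miR-1273g-3p had ratios of 1.22, 1.04 and 1.09. miR-1273a, miR-1273h-3p and miR-1273h-5p were above 1 in FTO1C1 and FTO2D4 and below 1 in FTO3C3.

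The approximate 95% intervals of these log2 fold changes ran from -0.47 at the lowest to 0.92 at the highest, short of a 2-fold change in either direction. They use normal quantiles and are too narrow for 3 clones, so a 2-fold change is not excluded. That of miR-1273e, 0.04 to 0.77, left out 0 although its unadjusted edgeR p was 0.0568. Without FTO3C3 the log2 fold change was 0.66 (SE 0.257) for miR-1273c and 0.69 (SE 0.209) for miR-1273d. By the rule of the study, a mean ratio over 2 or under 0.5 with at least 15 RPM, 0 entries were increased and 0 decreased, against 1.45% and 0.165% of all miRNAs. At a threshold of 1.5 the count was still 0, although 11.0% of all miRNAs then passed as increased. The largest mean ratio was that of miR-1273c, 1.46 ± 0.77.

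Other miRNAs annotated in Alu repeats were set beside the miR-1273 entries. The list of 20 holds 18 in the RIP-seq and 19 in the knockdown counts, and was drawn from background knowledge. In m6A against IgG libraries 17 of them were tested, of which 6 rose and 0 fell by the edgeR test, and the median log2 fold change was 0.71, against 7 of 8 higher and a median of 1.87 for the miR-1273 entries and 0.83 for all tested miRNAs, of which 38.6% were called higher. In m6A against input libraries 8 of 18 were called higher and 1 lower, with a median of 0.63 against 2.25 for the miR-1273 entries, beside 66.8% and 10.5% of all tested miRNAs. In IgG against input libraries 5 of 18 were called higher and 6 lower, with a median of -0.05 against -0.38, beside 36.8% and 21.8% of all. After FTO knockdown 1 of 19 was called higher and 0 lower, beside 4.97% and 0.505% of all. The lists were not tested against each other.

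The 3 of that list with the most reads in input, miR-1254, miR-566 and miR-5096, are given with their levels. miR-1254 had 155 ± 37.4 RPM in input, 95.2 ± 30.7 in IgG and 138 ± 22.1 in m6A libraries, without a call in any comparison. miR-566 had 140.3 ± 42.4, 48.1 ± 14.4 and 91.6 ± 11.0 RPM, was called lower in IgG than in input libraries (log2 fold change -1.54, adjusted p = 0.0027 by edgeR) and was the 1 called after knockdown (log2 fold change 0.745, adjusted p = 0.0347 by edgeR). miR-5096 had 114 ± 32.6, 212 ± 9.30 and 169 ± 43.9 RPM, without a call. miR-1285-3p was lower in IgG than in input libraries (log2 fold change -1.66, adjusted p = 0.00346 by edgeR), which is the opposite direction to miR-1273c. In m6A against IgG libraries it was called higher, as miR-1273c was (log2 fold change 1.46, adjusted p = 0.0394 by edgeR). Its change in m6A against input libraries, -0.23, was not called. The sequence of miR-1285-3p was the most like miR-1273c among those aligned, which left out the miR-1273 entries without a RefSeq sequence. Other Alu miRNAs of the list, chosen after their values were seen, moved in the same directions as miR-1273c. miR-4459 had log2 fold changes of 1.725 in IgG against input, 2.505 in m6A against IgG and 4.261 in m6A against input libraries, and miR-5095 had 2.552, 1.197 and 3.694, all called by edgeR. miR-5684 had 2.16 and 2.94 against input, both called, and 0.70 in m6A against IgG libraries without a call.

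**Figure D4:**
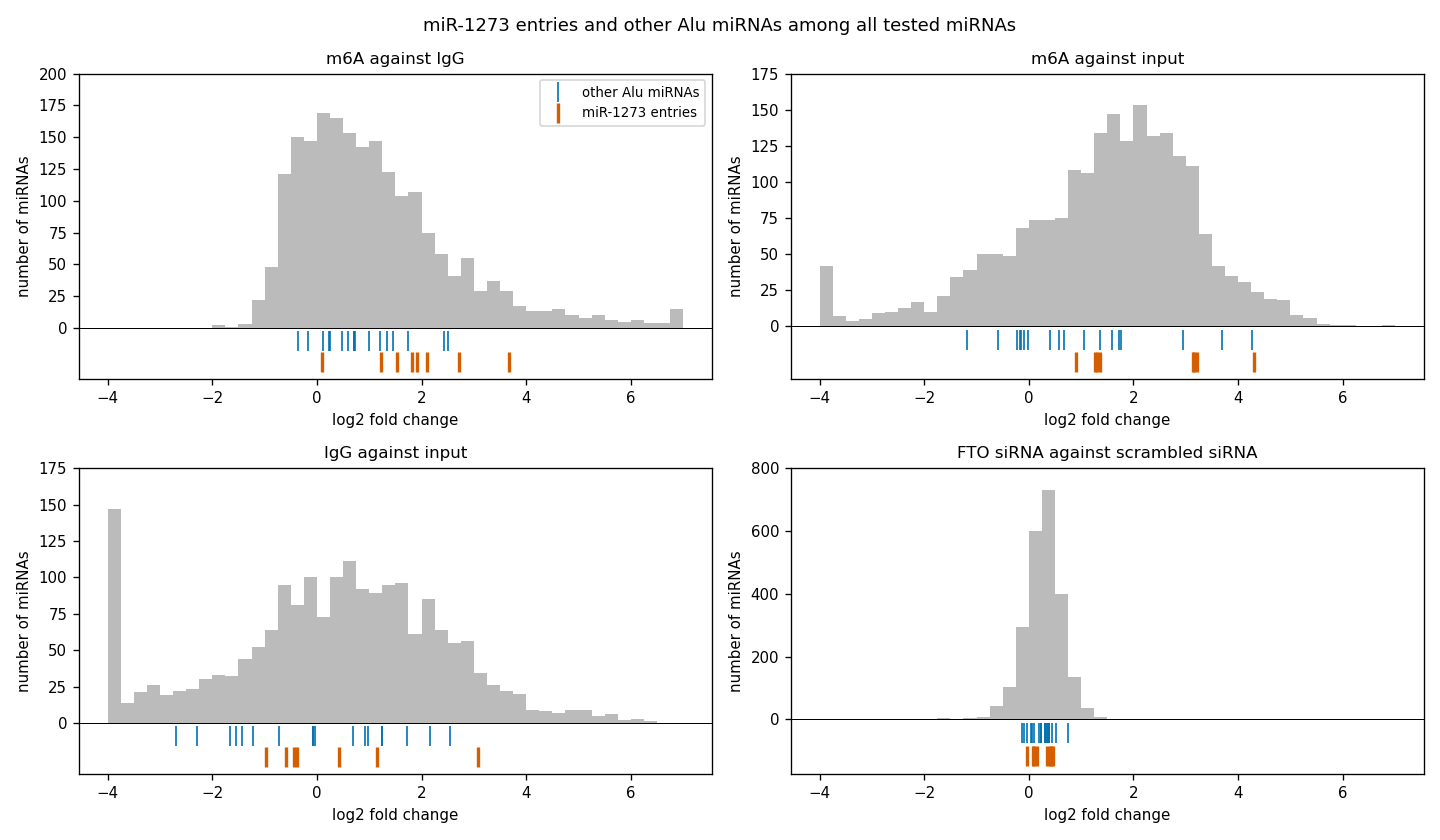
Number of miRNAs (vertical axis) by log2 fold change (horizontal axis) over all tested miRNAs in the 4 comparisons, with ticks under each histogram for the miR-1273 entries and the other Alu miRNAs. Values beyond the axis are gathered in the outermost bars. In m6A against IgG libraries the miR-1273 ticks run from 0.09 to 3.66 and in the knockdown from -0.04 to 0.47.

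The entries did not move as a block across the RIP-seq libraries. Over the 28 pairs of entries, Pearson's r of log2(RPM + 1) across the 9 libraries ran from 0.00528 (miR-1273a and miR-1273h-3p) to 0.964 (miR-1273e and miR-1273f), with a median of 0.727. miR-1273d, miR-1273e and miR-1273f were alike, with r from 0.901 to 0.964, and miR-1273c was nearest to miR-1273h-3p, at 0.898. The 2 arms of miR-1273h had an r of 0.467. The miRNAs most like the summed miR-1273 reads, among 1361 with at least 10 reads in every m6A and input library, were miR-4516 (r = 0.988), miR-542-3p (0.985), miR-4530 (0.983), miR-8085 (0.981) and miR-6500-3p (0.979). These values are descriptions over 9 libraries that fall into 3 groups and share their totals, and miR-1273c dominates the sum in 6 of the libraries.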

How the data were processed

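The authors deposited raw read counts per mature miRNA, 6 knockdown and 9 RIP-seq libraries, without normalization. Per their Methods, adapters were removed with cutadapt (4 bp overlap, 20% error), trimmed reads of 16 to 28 bp were kept and matched to miRBase release 20 through exact stretches of 7 bases or more that together spanned 17 or more. Their version of cutadapt is not given in the sources used here. A read fitting several miRNAs went to the one with most matching bases, so Alu-like reads can be split among similar entries.

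From these counts RPM were computed over total miRNA reads, as in the study. Each comparison was fitted over the whole table with edgeR 4.0.16 in R 4.3.3 (glmQLFit, glmQLFTest, filterByExpr with a minimum count of 10, plain totals, clone as block), with Benjamini-Hochberg adjustment over all tested miRNAs at 0.05. Standard errors were derived from the log2 fold change and its F statistic. TMM, DESeq2 1.42.0, no filter, no block, totals without miR-6080, other cutoffs and each clone left out were the alternatives. Single values were compared with unpaired exact permutation tests, which leave the pairing by clone aside (scipy 1.17.1), and figures drawn with matplotlib 3.10.9. An IgG count of 0 would have been set to 3 reads, but none occurred among the entries.

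The clone pairs the libraries, since same-named libraries come from the same cell line. Deviations of paired libraries from their group means correlated between 0.225 and 0.334 in the knockdown, between 0.0207 and 0.0386 for m6A and IgG, between -0.0782 and -0.0158 for m6A and input, and between -0.0228 and 0.0692 for IgG and input. Libraries of a group differed beyond sampling noise (chi-square per degree of freedom of at least 7.79). The entries, lists and tests were chosen with earlier results of these data known. All entries are named, as are the 3 of the Alu list with the most input reads, with the 5 miRNAs most like their sum. miR-1285-3p was named after its alignment was seen.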

Additional observations from a re-analysis of the deposited data

How the results depend on the processing

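The 0 calls after knockdown, and the 0 changes by the rule of the study, stayed 0 in every alternative run. Over all tested miRNAs, the knockdown calls were 130 of 2374 in the main run, 55 of 2374 with TMM factors and 91 of 777 with DESeq2. They were 139 of 2418 without a filter on low counts. With a clone left out they were 0 of 2363 without FTO1C1, 126 of 2392 without FTO2D4 and 201 of 2363 without FTO3C3. In m6A against IgG libraries the 7 calls became 3 with TMM factors, 4 with totals without miR-6080 and 2 with DESeq2, and between 3 and 6 with a clone left out. Over all tested miRNAs, the 818 calls of 2054 became 755 of 2054, 703 of 1909 and 615 of 2104 in the same order. They were 730 of 2152 without FTO1C1, 470 of 1999 without FTO2D4 and 591 of 2039 without FTO3C3. In m6A against input libraries the 8 calls became 4 with TMM factors and 4 with DESeq2, and between 6 and 7 with a clone left out. Over all tested miRNAs, the 1681 calls of 2174 became 1189 of 2174 with TMM factors and 1074 of 2189 with DESeq2. They were 1618 of 2188 without FTO1C1, 1501 of 2173 without FTO2D4 and 1505 of 2163 without FTO3C3. In IgG against input libraries the 2 calls became 1 without a filter on low counts, 4 with totals without miR-6080, 3 with TMM factors (1 higher, 2 lower) and 2 with DESeq2 (1 higher, 1 lower), and between 1 and 2 with a clone left out. Over all tested miRNAs, the 1137 calls of 1941 became 1177 of 2189, 1504 of 1975, 1145 of 1941 and 983 of 2146 in the same order. They were 840 of 1972 without FTO1C1, 1075 of 1986 without FTO2D4 and 1046 of 1958 without FTO3C3. Without the clone as a replicate block the calls numbered 7, 8 and 2, as with it, and 0 after knockdown, so the block changed no call of these entries. Over all tested miRNAs the calls without it were 882 of 2054, 1728 of 2174 and 1186 of 1941, and 41 of 2374 after knockdown. The 2 entries passing the rule for enrichment became 1 with all 3 ratios required, 1 with TMM factors, 3 with totals without miR-6080 and 7 at 15 RPM, and stayed 2 with any clone left out. Of all miRNAs, 44.2% passed at 15 RPM, and shares for the other settings of this rule were not computed. The cause of these changes was not tested.

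Some log2 fold changes turned their sign, none of them past the threshold on the turned side. After knockdown miR-1273a ran from -0.22 to 0.24 with a clone left out, miR-1273g-3p turned to -0.13 with TMM factors and -0.14 with DESeq2, and miR-1273h-3p to -0.21 and miR-1273h-5p to -0.20 with TMM factors. With a clone left out these ran from -0.13 to 0.32 and from -0.013 to 0.22. In m6A against IgG libraries miR-1273h-3p turned to -0.67 with TMM factors, -0.62 without miR-6080 in the totals and -0.71 with DESeq2. In m6A against input libraries TMM factors and DESeq2 gave -0.66 and -0.69 for miR-1273a, -0.28 and -0.30 for miR-1273g-3p, -0.26 and -0.29 for miR-1273h-3p, and -0.17 and -0.16 for miR-1273h-5p. In IgG against input libraries totals without miR-6080 gave 0.20 for miR-1273a, 0.68 for miR-1273e, 0.56 for miR-1273g-3p and 0.77 for miR-1273h-5p, leaving out a clone gave -1.22 to 0.17 for miR-1273e and -0.68 to 0.14 for miR-1273h-5p, and miR-1273f turned to -0.12 with TMM factors and -0.18 with DESeq2. The IgG counts limit the precision, since an IgG library held 2 to 19 reads of each entry other than miR-1273c.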
